A study of Homo sapiens with 5 samples.

Results

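Cyclins are the regulatory subunits of cyclin-dependent kinases (CDKs), and the 10 genes described here act around the passage from G1 into DNA replication. They are CCNA1, the D-type cyclins CCND1, CCND2 and CCND3, the E-type cyclins CCNE1 and CCNE2, and the CDK inhibitors CDKN1B, CDKN1C, CDKN2A and CDKN2B. They were taken from 14232 genes that the array platform's annotation names with a single symbol, and each of the 10 had exactly 1 such feature. The set was chosen by earlier results of these data, with CCNA1 selected on its difference between the overexpression and control arrays. Levels and fold differences are therefore given as descriptions, and the only test is a fit over all genes for knockdown.

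Gene expression was measured on 5 exon arrays, 1 for each RNA sample, in 2 established human lung cancer cell lines. A549, described by the submitters as having lost LKB1 function and as high in NEDD9, a focal adhesion scaffold, was measured without manipulation (n = 1) and with each of 2 short hairpins against NEDD9, shNEDD9 #1 and #2 (n = 2). CRL-5907, described as wild-type for LKB1 and low in NEDD9, was measured without manipulation (n = 1) and after overexpression of NEDD9 (n = 1). The unmanipulated samples are called controls, as in the labels. Neither a construct in the control cells, nor the promoter that drives NEDD9, nor whether cells were clonal or grown in separate cultures, is given in the sources used here. The description of the second hairpin's array says NEDD10 where its title says NEDD9, and the title was followed.

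D-type cyclins accumulate in response to growth signals and activate CDK4 and CDK6, which begin to phosphorylate the retinoblastoma protein. E-type cyclins then activate CDK2, E2F transcription factors are released, and replication genes are switched on. The INK4 inhibitors CDKN2A and CDKN2B bind CDK4 and CDK6, while the Cip/Kip inhibitors CDKN1B (p27) and CDKN1C (p57) act mainly on cyclin E-CDK2 and cyclin A-CDK2 complexes. CCNA1 encodes the A-type cyclin best known from male germ cells, whereas CCNA2 is the A-type cyclin of dividing somatic cells.

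The sequences just upstream of CCNE1 and CDKN1B and a short stretch of CCNA1 are shown because these genes stood furthest from control in 1 of the manipulations: CCNE1 and CCNA1 with overexpression, and CDKN1B with the hairpins. They come from RefSeq on GRCh38.p14 and are written 5′ to 3′ on the plus strand. GC boxes (GGGCGG or its reverse complement CCGCCC) are in capitals, for CDKN1B also CCAAT boxes. The CCNE1 and CDKN1B stretches are the 250 bases before the annotated start, at chr19:29811741-29811990 and chr12:12717118-12717367. The CCNA1 stretch covers positions 21 to 50 after the start, at chr13:36431975-36432004. RefSeq's CCNA1 gene begins further upstream, so the stretch lies within the gene span and the start used is not its outermost.
CCNE1: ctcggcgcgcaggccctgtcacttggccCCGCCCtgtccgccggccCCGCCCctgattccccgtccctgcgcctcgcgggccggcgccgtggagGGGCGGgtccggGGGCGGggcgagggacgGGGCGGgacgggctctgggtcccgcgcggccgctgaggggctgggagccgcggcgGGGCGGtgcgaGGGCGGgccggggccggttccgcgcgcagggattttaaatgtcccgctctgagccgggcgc
CDKN1B: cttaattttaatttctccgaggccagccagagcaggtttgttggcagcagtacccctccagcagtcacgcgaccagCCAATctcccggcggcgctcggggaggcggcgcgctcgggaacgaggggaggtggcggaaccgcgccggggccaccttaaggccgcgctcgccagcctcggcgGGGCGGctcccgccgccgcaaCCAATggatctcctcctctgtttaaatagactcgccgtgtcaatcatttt
CCNA1: ccatcgtggggtgggcgagtCCGCCCtccc
The CCNE1 stretch held 7 GC boxes and 81.2% G or C. The CDKN1B stretch held 1 GC box and CCAAT boxes at positions -174 and -50, with 64.4% G or C. In windows from 250 bases before to 50 bases after a start, RefSeq gave 9 windows for 6 of the 10 genes (3 for CCND3, 2 for CDKN2A and 1 each for CDKN2B, CDKN1B, CCNA1 and CCNE1). On either strand, 7 of these 9 windows held a GC box, against 45.0% of all 35116 windows. A CCAAT box was in 3 of 9, against 34.6%. None of the 9 held the E2F site spelled TTTCCCGC, TTTGGCGC or TTTCGCGC, found in 1.63%, 0.652% and 0.515% of all windows. The letters TGACGTCA of a cAMP response element (1.85% of all windows), the E-box CACGTG (7.26%) and the cell cycle homology element TTTGAA (15.2%) were also not in them. The forkhead site GTAAACA (3.42%) was in 1 of the 3 CCND3 windows. These matches describe letters in a window and not bound sites.

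Values are RMA-normalised log2 levels, which can be set against each other across arrays for 1 gene but not between genes, because probes differ in brightness. A gene entered a comparison when its highest value exceeded the median of the same array, taken over features with 1 symbol (medians of 5.69 to 5.85); below it a signal was not shown to exceed background. Of the 10 genes 5 passed in A549 and 7 in CRL-5907 and between the control arrays. NEDD9 followed its labels, at 8.94, 8.35 and 8.52 on the A549 control, hairpin 1 and hairpin 2 arrays and at 4.66 and 9.49 on the CRL-5907 control and overexpression arrays. Of 8 epithelial markers 6 were above the median in A549 control cells and 7 in CRL-5907 control cells. None of 5 endothelial markers was above it on either, nor any of 7 fibroblast markers on the A549 control (1 of 7, COL1A1, on the CRL-5907 control). Of 6 leukocyte markers CD68 and CD14 were above it on both controls, while the defining marker PTPRC stood at 1.72 on all 5 arrays. LYZ, which encodes lysozyme and is on the leukocyte list, was 1.99 and 1.78 log2 higher with hairpins 1 and 2 but stayed below the median. As error scale, the SD of the difference between the hairpin arrays was taken over genes of like level. It includes true differences between the hairpins and is 0.129 to 0.266 log2 at the levels of the 10 genes. This A549 scale was also used for CRL-5907 and between the controls, where single arrays give no spread of their own. The 2 hairpin differences share 1 control array, so a deviation of that array would move both alike.

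**Figure D1:**
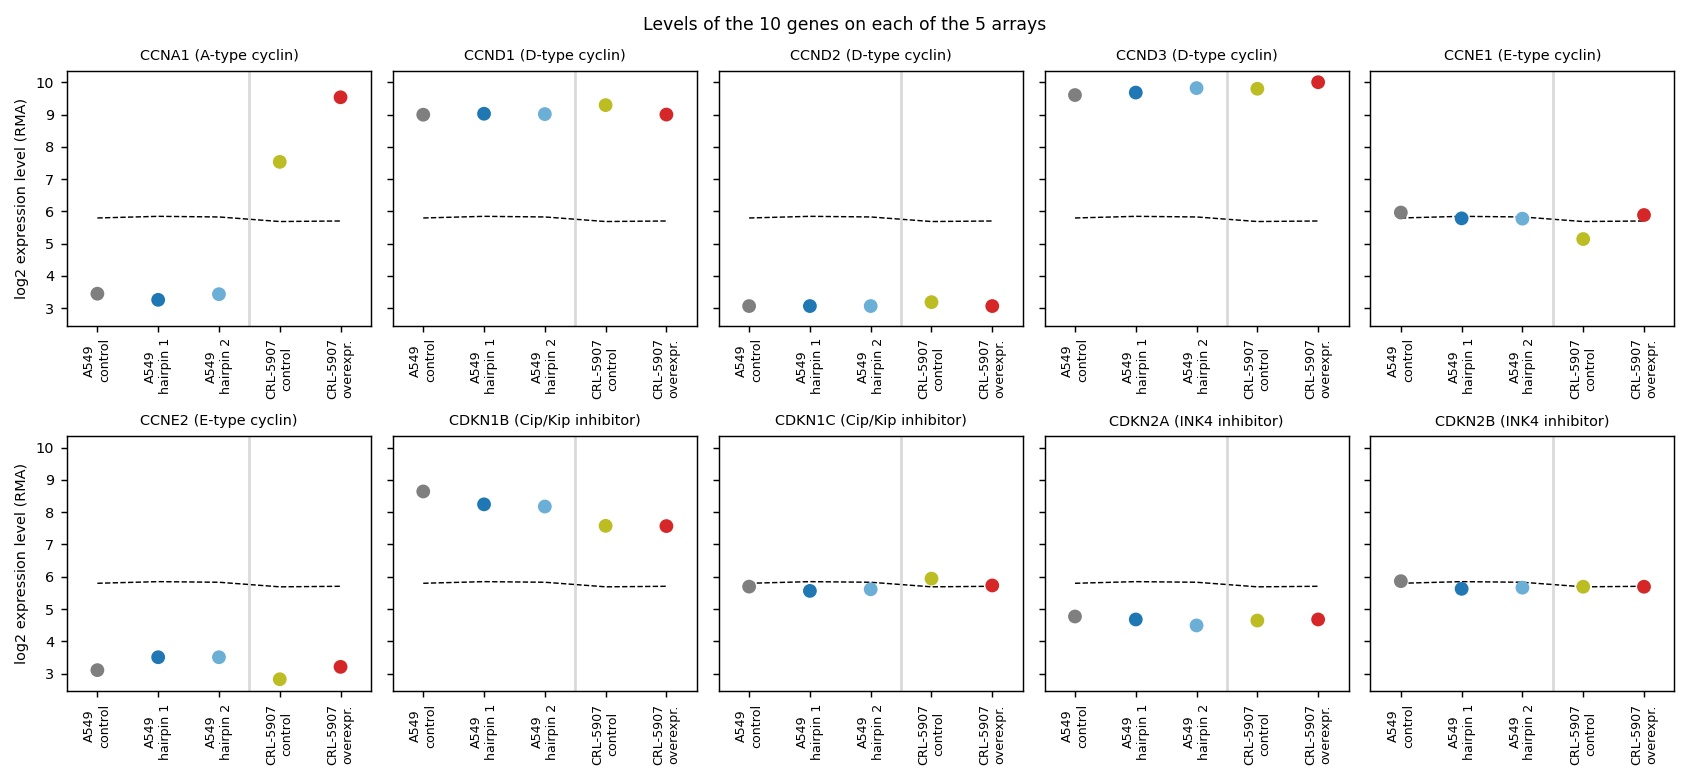
Log2 expression level (vertical axis) of each of the 10 genes on the 5 arrays (horizontal axis), 1 point per array, with the dashed line joining the medians of the arrays over named features. CCNA1 lies near 3.45 on the A549 control and at 7.54 and 9.54 on the CRL-5907 arrays, and CDKN1B is highest on the A549 control.

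CCNA1 differed most among the 10, both between the lines and with overexpression. Its log2 level was 3.45 on the A549 control array, 3.26 with hairpin 1, 3.44 with hairpin 2, 7.54 on the CRL-5907 control array and 9.54 with NEDD9 overexpression. All 3 A549 arrays were below their medians and both CRL-5907 arrays were above. The overexpression array exceeded its control by 2.00 log2, or 4.01-fold, against a spread of 0.160 for genes of its level. That was the second largest increase among the 7410 genes above the level filter, after NEDD9 itself, and the fourth among all 14232 genes. CLTRN (2.25) and TUBA1B (2.02), which were further from control than CCNA1 and were named after their values were seen, did not reach the median on either CRL-5907 array. Of the 7410 genes 3.5% passed 1.5-fold upward and 0.85% downward with overexpression. With 1 array per condition this difference has no replicate check, and CCNA1 was chosen for it.

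In A549 CCNA1 was at -0.19 with hairpin 1 and -0.02 with hairpin 2, both smaller than the spread of 0.266 at its low level. It was below the level filter there and was not tested. Between the controls CCNA1 was 4.09 log2 higher in CRL-5907, a 17.0-fold difference. It may be an underestimate, because the A549 level was not shown to exceed background, but single arrays leave error in both directions. On the measured values, 9 of the 7716 genes that passed between the controls differed by more in that direction. The CRL-5907 control array enters both this difference and that with overexpression.

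None of 5 measured germ cell markers lay above the median on any array. DDX4, a germ cell helicase, stood at 2.01 and SYCP1, a protein of meiotic chromosomes, at 1.40 to 1.47 on the 5 arrays. PRM1, a sperm protamine, was 0.69 log2 lower with overexpression. CCNA2, the somatic A-type cyclin, had another profile, at 6.17, 6.61, 6.98, 4.68 and 5.09 on the arrays in the same order. It was 1.49 log2 higher on the A549 control than on the CRL-5907 control, 0.44 and 0.81 higher with the hairpins, and 0.41 higher with overexpression, where it lay below the level filter. CCNA1 and CCNA2 thus stood on opposite sides between the control arrays.

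The genes most like CCNA1 were sought by the smallest Euclidean distance between log2 values centred on their mean over the 5 arrays. The nearest of those above the level filter in CRL-5907 were S100A12 (distance 1.49), OLFM1 (1.58), S100A9 (1.59), INSIG1 (1.60) and IL6 (1.61). All were higher on the CRL-5907 than on the A549 control array, by 2.81 (IL6) to 4.97 (S100A9) log2. With overexpression they did not match CCNA1: IL6 was at 1.19, OLFM1 at 0.54, INSIG1 at 0.43, S100A12 at 0.00 and S100A9 at -0.08. The difference between the lines, which is the largest in CCNA1's own profile, weighed most in the choice of these genes, so that they share it is no finding.

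**Figure D2:**
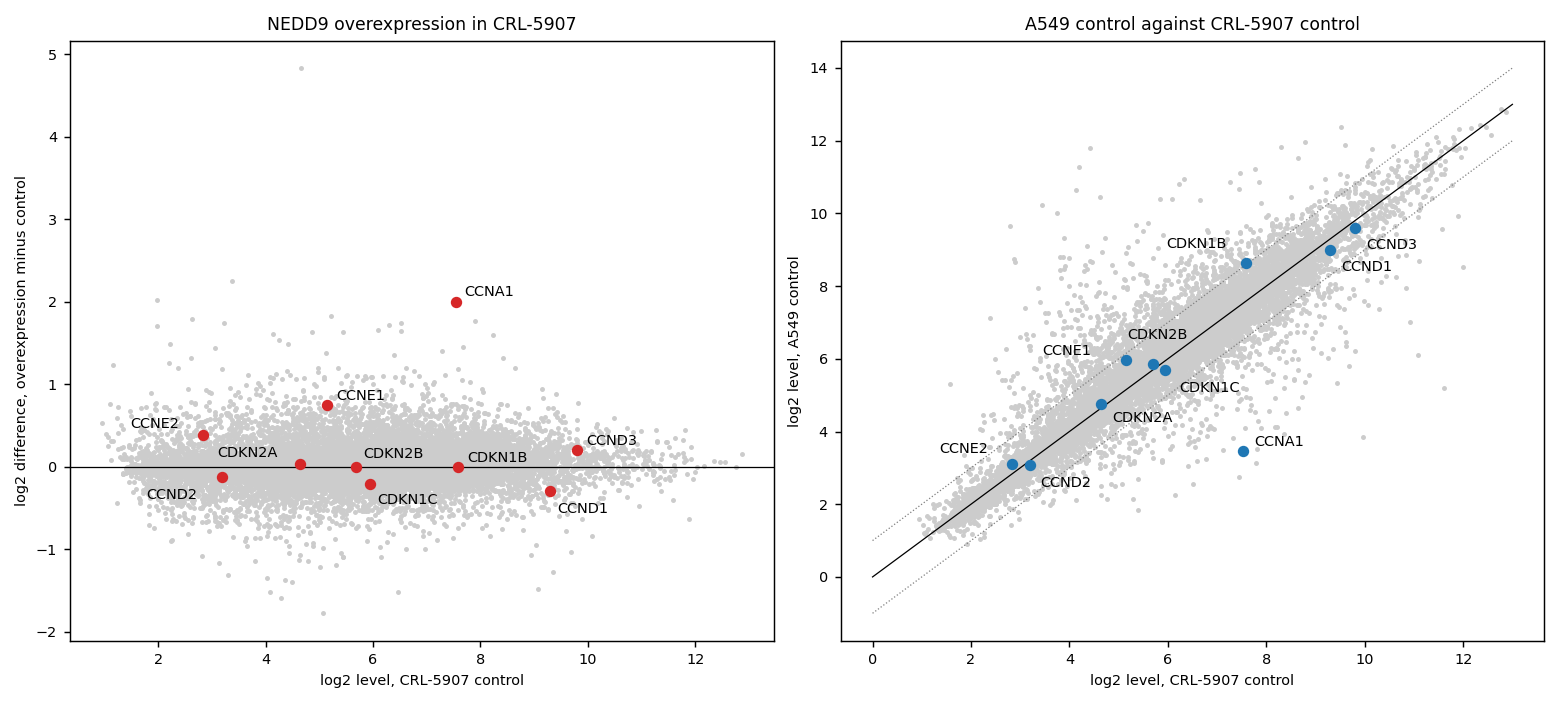
Each grey point is 1 of 14232 genes and the coloured points are the 10 genes described here. Left, the log2 difference between overexpression and control against the log2 level on the CRL-5907 control array, where CCNA1 is at 2.00 and CCNE1 at 0.75; right, the log2 levels on both control arrays, with the solid line at equality and dotted lines at 2-fold, where CCNA1 lies 4.09 below equality.

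None of the D-type cyclins passed 1.5-fold with a manipulation or 2-fold between the controls. CCND1, the D-type cyclin most often amplified in epithelial tumours, was at 9.00, 9.03 and 9.02 on the A549 control, hairpin 1 and hairpin 2 arrays and at 9.30 and 9.00 on the CRL-5907 control and overexpression arrays. The CRL-5907 control was the high array. CCND1 was accordingly 0.29 log2 lower with overexpression, against a spread of 0.129, and 19.2% of all genes were at least as far from control. Its hairpin differences of 0.03 and 0.02 were smaller than the shift between scalings of the arrays and have no direction. limma gave CCND1 an adjusted p of 0.69 (Benjamini-Hochberg) for knockdown.

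CCND3 was at 9.61, 9.68 and 9.82 in A549 and at 9.80 and 10.01 in CRL-5907. Both manipulations lay above their controls, by 0.08 and 0.22 with the hairpins and 0.20 with overexpression. The first of these was below the spread of 0.129 and turned to -0.01 after a further quantile normalization. The limma adjusted p for knockdown was 0.524. CCND2 was far below the median on all 5 arrays, at 3.07 on 4 of them, exactly equal, and at 3.19 on the CRL-5907 control. RMA can give several arrays the same value for a feature, and a difference of 0 may have this origin. Across all genes 11.2% had equal values on the 2 hairpin arrays and 9.58% on the 2 CRL-5907 arrays.

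The E-type cyclins were both above control with overexpression and stood on opposite sides with the hairpins. CCNE1, the E-type cyclin often amplified in carcinomas, was at 5.97 on the A549 control, 5.79 with hairpin 1, 5.78 with hairpin 2, 5.14 on the CRL-5907 control and 5.89 with overexpression. The CRL-5907 control was the low array, below its median, and the value on the overexpression array lay within the range of the A549 arrays. The increase of 0.75 log2, against a spread of 0.187, was 1.68-fold on the measured values. It may be an underestimate, because the control level was not shown to exceed background, but single arrays leave error in both directions. CCNE1 ranked 112 among the 7410 genes by increase, and only CCNA1 and CCNE1 of the 10 passed 1.5-fold, both upward. The next gene, CCNE2, was outside that threshold at 0.38. After a further quantile normalization 62.9% of the genes past 1.5-fold were higher with overexpression, where the deposited scaling gave 80.4%. CCNA1 and CCNE1 kept 1.94 and 0.73 log2 there.

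With the hairpins CCNE1 was at -0.18 and -0.19, or -0.19 ± 0.01 (SD, n = 2), about the size of the spread of 0.177. In A549 only the control array was above its median (5.97 against 5.80), and both hairpin arrays were below theirs. CCNE1 is therefore not read as lower with the hairpins. limma did not call it (adjusted p = 0.276, unadjusted p = 0.0302). CCNE2, the second E-type cyclin, was at 3.11, 3.51, 3.51, 2.82 and 3.21 on the arrays in the same order, all below the medians. It was 0.40 log2 higher with both hairpins, whose values were exactly equal, and 0.38 higher with overexpression, against spreads of 0.266 and 0.261. Between the controls CCNE1 was 0.82 and CCNE2 0.28 log2 higher in A549, both under 2-fold.

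Each of the 4 inhibitors was below control with both hairpins, where 27.7% of all genes were, but CDKN1C and CDKN2A were below the level filter in A549 and had differences within the spread (CDKN2A with hairpin 1 only). CDKN2B passed the filter in A549 only through the control array. No member passed 1.5-fold with both hairpins, a fold that 0.708% of 7485 genes passed upward and 0.134% downward. Of the genes past it 84.1% were higher as deposited and 69.0% after a further quantile normalization. NEDD9 itself was at -0.59 and -0.41 and did not pass it with hairpin 2. CDKN1B, which encodes p27 and restrains CDK2 in resting cells, was furthest. Its level was 8.64 on the A549 control, 8.24 with hairpin 1, 8.18 with hairpin 2, 7.58 on the CRL-5907 control and 7.57 with overexpression. The A549 control was the highest of the arrays and the hairpin arrays lay between it and the CRL-5907 arrays. CDKN1B was thus 24.2% lower with hairpin 1 and 27.6% lower with hairpin 2, a log2 difference of -0.43 ± 0.05 (SD, n = 2) against a spread of 0.160. Of all genes 5.93% were at least as far from control.

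The limma fit, with 1 residual degree of freedom, did not call CDKN1B (adjusted p = 0.276 with Benjamini-Hochberg adjustment, unadjusted p = 0.0207; adjusted p from 0.143 to 0.327 over the alternatives). It called 0 of 7485 genes (0%), although 1312 (17.5%) had an unadjusted p under 0.05. With overexpression CDKN1B was at -0.01. Between the controls it was 1.07 log2, or 2.09-fold, higher in A549, and 9.88% of 7716 genes were at least 2-fold higher in A549 and 5% in CRL-5907. CDKN1B and CCNA1 were the only members past 2-fold between the controls. CDKN1B no longer passed with arrays centred on their medians (0.99 log2) or after a further quantile normalization (0.94). The A549 control array is part of both the knockdown and the line difference.

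CDKN2B, an INK4 inhibitor that TGF-beta induces in epithelial cells, was at 5.86, 5.63, 5.66, 5.69 and 5.69 on the arrays in the same order. The A549 control was again the high array, with differences of -0.24 and -0.20 for the hairpins against a spread of 0.182. In A549 only the control array was above its median (5.86 against 5.80), and both hairpin arrays were below theirs. These differences are therefore not read as a lower CDKN2B level. limma did not call CDKN2B (adjusted p = 0.276, unadjusted p = 0.0385). Its CRL-5907 values were exactly equal. CDKN2A, whose locus encodes both p16 and ARF, was at 4.77, 4.68, 4.49, 4.64 and 4.68, below the median on all 5 arrays. A549 is known for a homozygous deletion of this locus. Its hairpin differences of -0.09 and -0.28 are between values not shown to exceed background and are not read as a lower CDKN2A level. The CRL-5907 control was within 0.13 log2 of the A549 control, less than the spread of 0.227, so the feature did not separate the lines. Of 5 measured genes on a list of neighbours at the same chromosome band, only KLHL9 was above the filter, at 8.27 on the A549 and 8.34 on the CRL-5907 control.

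CDKN1C, an imprinted Cip/Kip inhibitor, was at 5.69, 5.56, 5.61, 5.94 and 5.73, below the medians in A549 and highest on the CRL-5907 control. Its differences were -0.13 and -0.08 with the hairpins and -0.21 with overexpression, against a spread of 0.182. Among 5 measured neighbours of CDKN1C, PHLDA2, another imprinted gene, was at -0.07, -0.13 and 0.02 in these comparisons. CD81, a membrane protein, was 1.35 log2 higher on the A549 than on the CRL-5907 control, a gap that CDKN1C (-0.25) did not share.

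**Figure D3:**
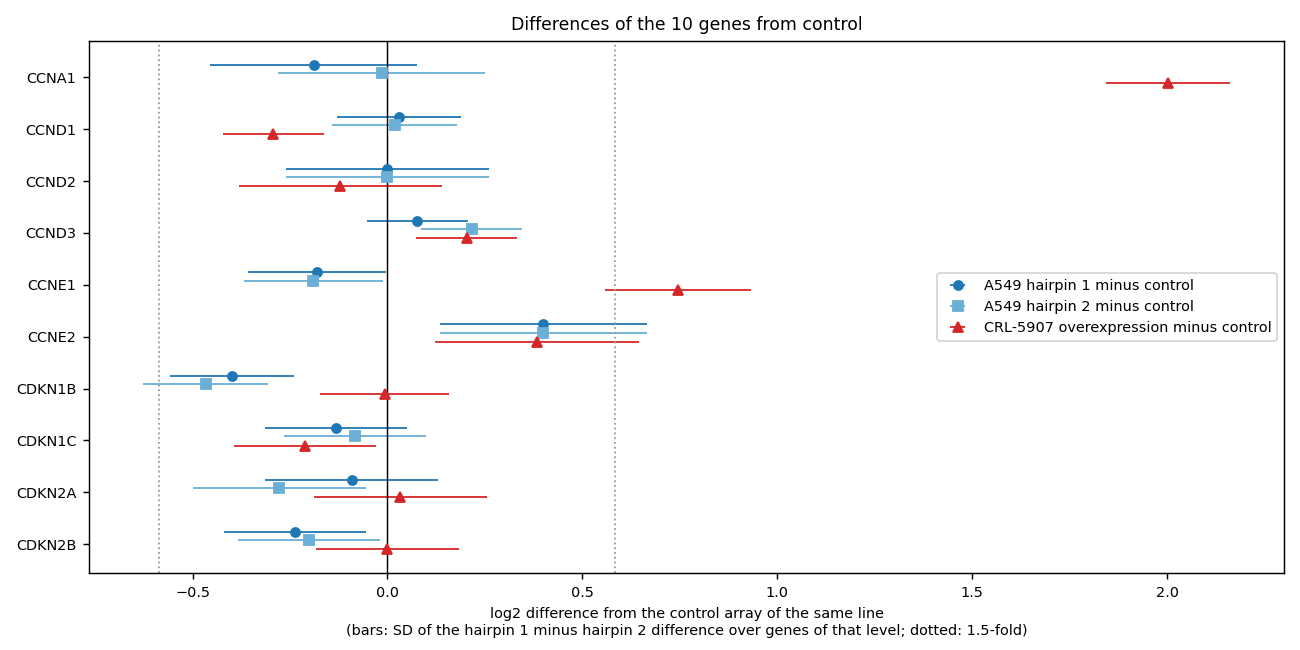
Log2 difference from the control array of the same line (horizontal axis) for each of the 10 genes, with hairpin 1 and hairpin 2 in A549 as blue points and overexpression in CRL-5907 as red triangles. Bars are the SD of the difference between the hairpin arrays over genes of like level and dotted lines mark 1.5-fold; CCNA1 (2.00) and CCNE1 (0.75) lie beyond them, and the 4 inhibitors lie to the left of 0 with both hairpins.

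Other genes of the pathway were read from 5 lists of CDK partners, further inhibitors, pocket proteins and E2F factors, ubiquitin ligases and upstream factors, of which 42 of 54 genes were measured with a single symbol. With the hairpins 28 were above control with both and 4 below with both, where 39.6% and 27.7% of all genes were. None passed 1.5-fold with both, against 0.794% of all genes upward and 0.302% downward. The medians were 0.13 with hairpin 1 and 0.15 with hairpin 2, where all genes had 0.02 and 0.00. limma called none of them. CCNA2, E2F6, a repressor of the E2F family (0.74 and 0.47), and FOXM1, a transcription factor of the mitotic program (0.36 and 0.65), were among the furthest. MYCN, a MYC family factor, was furthest on the lower side with hairpin 1 (-0.78) but was at -0.14 with hairpin 2. SKP2, the ubiquitin ligase subunit that targets p27 for degradation, was at 6.63 on the A549 control and at 7.08 and 7.13 with the hairpins, a log2 difference of 0.48 ± 0.03 (SD, n = 2). It was also 0.49 higher with overexpression, where CDKN1B was at -0.01. Both are RNA levels, and p27 protein and its degradation were not measured. MYBL2, an E2F target and activator of cell cycle genes, was at 0.43 and 0.51. RB1, the retinoblastoma gene, was at 0.39 and 0.37.

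Further CDK inhibitors did not go one way with the hairpins. CDKN1A, which encodes p21, was at -0.19 and -0.08. CDKN3, a phosphatase that acts on CDKs and is abundant in dividing cells, was at 0.39 and 0.52. CDKN2D was at -0.18 and 0.00, and CDK2AP1 at -0.02 and -0.08. CDK2 was at 0.41 with hairpin 1 and -0.06 with hairpin 2, so the hairpins differed for this kinase, and CDK6, the D-type cyclin partner, was at 0.25 and 0.27.

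With overexpression 34 of the 42 pathway genes were above control, where 48.1% of all genes were, and 5 below, with a median of 0.18 where all genes had 0.00. Past 1.5-fold upward were 5 of 42, against 2.9% of all genes, and none downward, against 1.35%. They were FOXM1 (0.69), E2F3 (0.67), KLF6 (0.67), CDKN3 (0.64) and E2F6 (0.66). E2F6 was below the level filter in CRL-5907 and was named after its value was seen. FOXM1 and E2F3 passed the filter only through the overexpression array, at 5.19 and 5.10 on the CRL-5907 control. CDKN1A was at 0.23. MYC (0.06) and E2F1, an activating E2F (0.02), both named after their values were seen, were close to control.

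Proliferation markers stood mostly above control in both manipulations. Of 14 measured markers all 14 were above control with both hairpins, where 39.6% of all genes were, with medians of 0.44 and 0.70. With overexpression 12 were above control, where 48.1% of all genes were, with a median of 0.58. Only 4 of the 14 passed the level filter in CRL-5907, so the others were not shown to exceed background there. CDK1 (0.88 and 1.29) and CCNB2 (0.73 and 1.02) passed 1.5-fold upward with both hairpins, as did 0.794% of all genes. TYMS, thymidylate synthase, was at 1.02 and PLK1, a mitotic kinase, at 1.00 with overexpression. TYMS and PLK1 were below the median on the CRL-5907 control and passed the filter only through the overexpression array. Their control levels were therefore not shown to exceed background. Between the controls 9 of the 14, and 916 of all 14232 genes, were at least 2-fold higher in A549. TOP2A was 3.07 log2 and PLK1 2.16 log2 apart. All 9 markers were below the median on the CRL-5907 control, so the sizes may be underestimates for those above it on the A549 control. CDK1 and BUB1 were below the median on both controls, so none of their control values was shown to exceed background. Between the controls CCNE1 and CDKN1B were higher in A549, as were most of these markers, and CCNA1 was higher in CRL-5907. With the hairpins the values of CCNE1, CDKN1B and CCNA1 were below control. CCNA1 was within the spread, and CCNE1 passed the filter in A549 only through the control array. With overexpression CCNA1 and CCNE1 were above control and CDKN1B was at -0.01. The part of proliferation in the CCNE1, CCNA1 and CDKN1B differences was not tested.

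**Figure D4:**
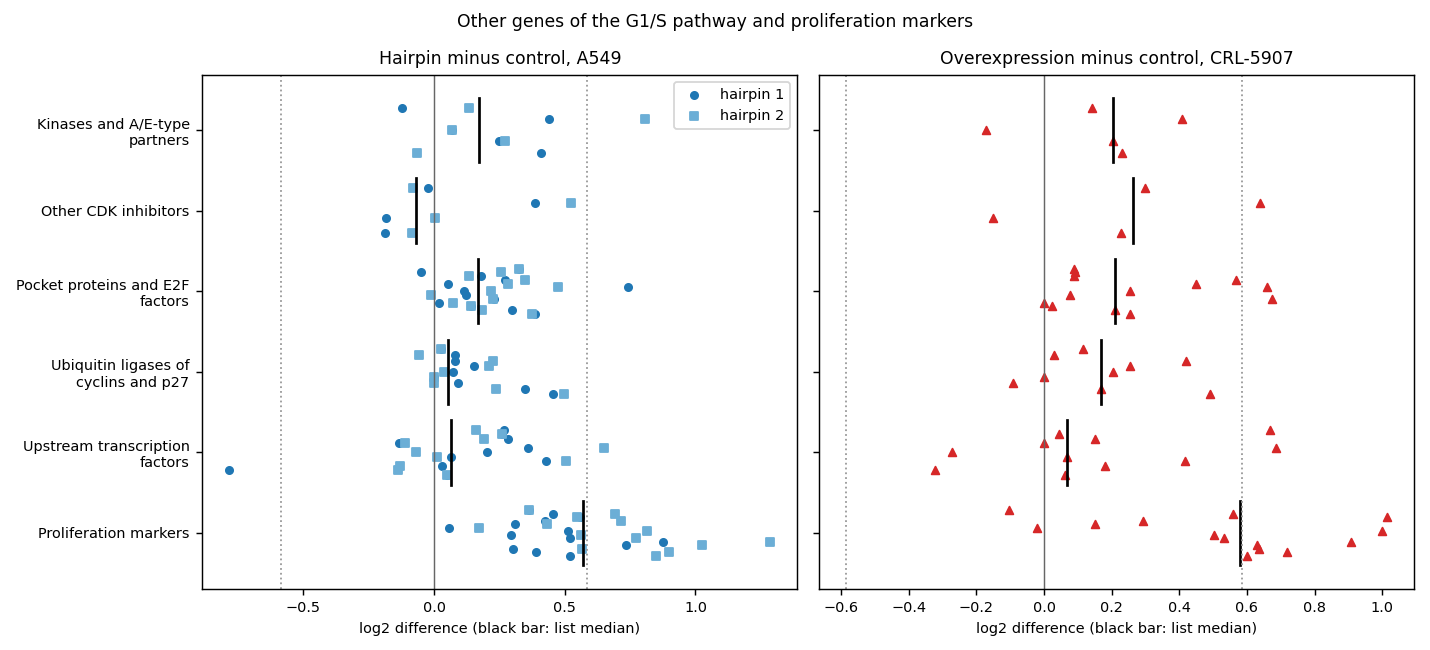
Log2 differences from control (horizontal axes) of 42 other G1/S genes in 5 lists and of 14 proliferation markers, for hairpins 1 and 2 in A549 (left) and overexpression in CRL-5907 (right). Each point is 1 gene on 1 array, black bars are list medians (left, of the mean over both hairpins), and dotted lines mark 1.5-fold; all 14 proliferation markers lie to the right of 0 with both hairpins.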

How the data were processed

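Total RNA was depleted of ribosomal RNA, amplified as sense-strand cDNA and labelled with biotin, per the labels' protocols. The authors deposited log2 values for 22011 features, for which the submitters' processing notes name RMA and Affymetrix Power Tools. Versions and genome build are not given in the sources used here. Base 2 was inferred from the range of the values, 0.58 to 13.09. RMA background-corrects and quantile-normalises arrays together and averages probes over a gene's exons, so isoforms were not separated. Of the features 14432 had 1 symbol; for a gene with several, the brightest was used. Array number, not depth, limits precision.

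Samples were grouped by title. Fold thresholds were 1.5 for manipulations and 2 between controls. Knockdown was fitted on the 3 A549 arrays with limma 3.58.1 in R 4.3.3 (lmFit, eBayes with trend, Benjamini-Hochberg at 0.05). On simulated data with the same SD for every gene, only the mean estimated effect was required to be right. The power of the fit in the real data was not checked. The fit assumes that the single control varies like the hairpins. Spread was taken in 20 bins of level. Members and lists were chosen with earlier results of these data known. Genes named were the 10, NEDD9, at most 4 of the furthest above the filter per list, marker genes, and the 5 most like CCNA1. Alternatives were median-centred arrays, repeated quantile normalization, averaged features in place of the brightest, a level filter removed or set at the 75th percentile, exchanged fold thresholds, single hairpins, no trend, and all 5 arrays in the fit.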

Additional observations from a re-analysis of the deposited data

How the results depend on the processing

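Of 110 alternative values for the 30 differences of the 10 genes, 108 stayed within the spread of genes of like level and none of the differences past its fold threshold changed sign. The 2 that moved more were between the controls after a further quantile normalization, CCND1 (-0.45) and CCND3 (-0.35). Averaging features could not change any of the 30 differences, because each of the 10 genes had 1 feature. The single-hairpin values have the main value as their mean. The 108 are therefore not a count of independent checks. The number of members past 2-fold between the controls was 2 and became 1 with centred arrays and 1 after a further quantile normalization. The number past 1.5-fold with overexpression was 2 and became 1 with the filter at the 75th percentile and 1 at 2-fold. With both hairpins, and with either hairpin alone, it was 0. limma called 0 genes in every alternative, with the lowest adjusted p from 0.112 to 0.327. No paired analysis was possible because each line has a single control array with no replicate number. Single arrays, unknown background detection and the shared control limit what small differences can show.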
